A study of Chrysanthemum x morifolium with 4 samples.

Results

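The comparison described here sets chrysanthemum leaves that had spent 24 h at 4 °C against leaves of control plants. It covers the 48004 of 93837 unigenes that had 10 or more counts summed over all 4 libraries of the series. A unigene is a transcript pieced together from the sequencing reads, and the table gave each one an assembly identifier without a gene name. The acclimated library came from plants held at 4 °C for 24 h, and the control library from plants kept in the normal growth condition. The remaining libraries, which enter the minimum count, the scaling and a frozen pair described beside the comparison, came from plants frozen at -4 °C for 4 h after that acclimation and from plants frozen at -4 °C for 4 h without it. All plants were of the cultivar Jinba (Chrysanthemum x morifolium), given by the labels as 20 days old. They were propagated from tissue culture on MS medium under a 16 h photoperiod at 25 °C by day and 22 °C by night, then kept in pots of peat and perlite for 3 days before treatment. Leaf RNA was measured by Illumina RNA sequencing.

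Each treatment had 1 library, made from the mixed leaves of 3 replicates. The spread between plants was therefore not measured, no comparison below has a replicate check, and no p-value is given. Every interval covers counting error only. With 1 library a side, an effect of the treatment and a peculiarity of either library cannot be told apart.

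Cold acclimation is the gain in freezing tolerance that many temperate plants show after a spell of low, non-freezing temperature. In Arabidopsis it is known to run partly through CBF/DREB1 transcription factors, which switch on cold-regulated genes for protective proteins and for the synthesis of compatible solutes, while transcripts for photosynthesis and growth are often lowered. Since no unigene carried a name, none could be placed in such a group, and the leaf identity of the tissue could not be checked with marker genes. The results are therefore given by level, size of change, transcript length and behaviour in the frozen libraries.

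The acclimated library held 15179341 counts and the control library 15781435 counts, and the frozen libraries held 14024558 (after acclimation) and 14345704 (without). A count of 0, taken to allow up to 3 counts, left room for a level of up to 0.202 CPM (the count scaled to a common library size) after acclimation and 0.191 CPM in the control. The 45833 unigenes under the minimum count held 0.275% of acclimated and 0.304% of control counts. At the edge of that filter, the 1708 unigenes with a sum of 10 and the 2020 unigenes with a sum of 9 had the same median of 2 counts in either library of the comparison. Of the members, 10421 had fewer than 10 counts in the acclimated and control libraries together and met the minimum through the frozen libraries. Among these, 633 had no count in either library of the comparison.

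Between the acclimated and the control library, unigenes differed in both directions. Of the members, 3741 (7.79%) were called higher and 3146 (6.55%) were called lower in acclimated than in control leaves, 14.3% in all. A unigene was called where the whole exact 95% counting interval of its ratio lay beyond 2-fold, with libraries scaled by TMM, a method that centres the ratios of most transcripts. The unigenes called higher had a median of 15.0 FPKM (fragments scaled by transcript length and library size) after acclimation and 3.18 FPKM in the control. Their median log2 ratio was 2.27, or 2.12 with counts under 3 set to 3. The lower ones had a median of 1.26 FPKM after acclimation and 6.94 FPKM in the control, with a median log2 ratio of -2.45, or -2.14 with counts under 3 set to 3. Less RNA per cell and fewer cells of a type cannot be told apart in such whole-leaf libraries.

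The remaining members are accounted for as follows. For 7794 the interval lay above equal levels without clearing 2-fold, and for 8891 it lay below. A further 1392, called near-equal here, had a whole interval between a ratio of 0.8 and its inverse. The largest class, 22407 unigenes (46.7%), had an interval that took in equal levels and reached past those bounds, at a median of 7 counts in each library, so that no difference was detectable at this depth. This class made up only 4.10% of acclimated and 4.20% of control counts.

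**Figure D1:**
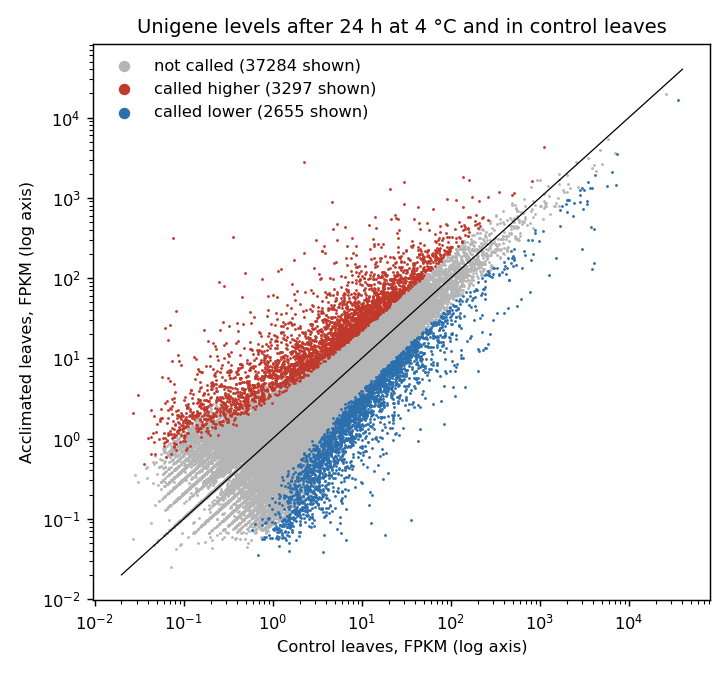
FPKM in acclimated leaves (vertical axis) against FPKM in control leaves (horizontal axis), both on log axes, for the 43236 members with counts in both libraries; each point is a unigene, red where called higher, blue where called lower, grey where not called, and the line marks equal FPKM. The 4768 members at 0 counts in either library are not drawn. Of the 74 points at 1000 FPKM or more in the control, 69 lie below the line. These points were picked for a high level in the control, which tilts them below the line.

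Calls of large changes leaned to the higher side. An interval wholly beyond 4-fold was found for 1064 unigenes higher (2.22%) and 645 lower (1.34%) after acclimation. Beyond 8-fold there were 326 higher (0.679%) and 166 lower (0.346%), and beyond 16-fold 117 higher (0.244%) and 37 lower (0.0771%). At the other end the order turned: with an interval that only had to exclude equal levels, 11701 were higher (24.4%) and 12236 lower (25.5%). Over all members the log2 ratio had its central 50% between -0.89 and 0.85 and its central 90% between -2.77 and 2.84. The outermost 1% on each side lay beyond -4.35 and 4.43. By point value alone, 10582 members were more than 2-fold higher and 11188 more than 2-fold lower. The unigenes called higher had a median of 263 counts after acclimation, and those called lower had 92 in the control. A narrow interval needs more counts, and the part of depth in the lean of large calls was not tested. Among the 5726 members with 1000 or more counts in the libraries compared, where counting error is small, the median was 0.26 and the interquartile range 1.23. The median half-width of the counting interval was 0.14 for unigenes with 1000 to under 10000 counts. The width of the distribution among abundant unigenes thus lay well above counting error, but how much of it is spread between plants was not measured.

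How often a unigene was called followed its depth. Of members with 10 to 29 counts in the libraries compared, 13.1% were called, against 18.5% at 100 to under 300 counts, 25.0% at 1000 to under 10000 counts and 39.9% of the 328 unigenes with 10000 or more. The higher side made up 43.8% of calls at 10 to 29 counts, 73.1% at 1000 to under 10000 counts and 52.7% at 10000 or more. Against a count of 0, a higher call needed at least 9 counts and a lower call at least 10, which is why the members under 10 counts gave 81 higher calls and no lower one.

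Because a class of level set from the acclimated or control library would share its chance values with the ratio, the level was also taken from the mean FPKM of the frozen libraries, of which 1 was acclimated and 1 was not. From 0.5 FPKM upwards the share called higher climbed with that level, whereas the share called lower followed no steady order. At 0.5 to 1 FPKM 3.0% of unigenes were called higher and 4.52% lower. At 3 to 10 FPKM the shares were even, at 8.21% higher and 8.19% lower. At 30 to 100 FPKM 19.5% were called higher and 5.50% lower, and at 100 FPKM or more 24.0% higher and 10.3% lower. Grouped by the mean of the acclimated and control libraries the pattern was alike at the upper end, with 19.4% higher and 6.65% lower at 30 to 100 FPKM, and 23.0% higher and 12.3% lower at 100 FPKM or more. The frozen mean is not free of acclimation either. Unigenes called higher had medians of 12.8 FPKM in leaves frozen after acclimation and 6.42 FPKM in leaves frozen without it. Those called lower had 1.46 FPKM and 4.92 FPKM. The climb of the higher share with that mean is therefore partly built in. Counts also rise with level, and the part of depth in these shares was not tested.

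**Figure D2:**
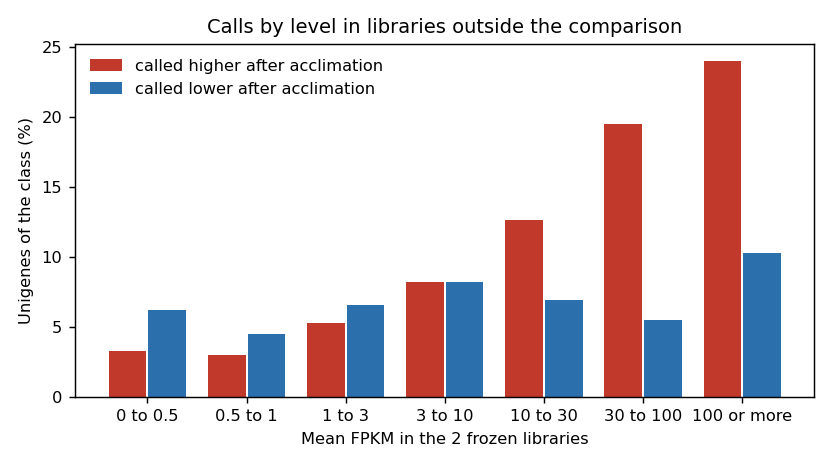
Share of unigenes called higher (red) and lower (blue) after acclimation, in percent of each class (vertical axis), by mean FPKM in the 2 frozen libraries (horizontal axis). The shares are even at 3 to 10 FPKM, at 8.21% and 8.19%, and the red bars exceed the blue from 10 FPKM upwards.

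Longer unigenes were called more often and more often higher. Lengths here are those implied by the ratio of count to FPKM. Of the 20005 members of 500 to 1000 bases, 1244 (6.22%) were called higher and 1353 (6.76%) lower. Of the 12089 of 1000 to 2000 bases, 1462 (12.1%) were called higher and 995 (8.23%) lower. Of the 3842 of 2000 bases or more, 580 (15.1%) were called higher and 253 (6.59%) lower. Over all members the shares were 7.79% higher and 6.55% lower. The share called lower did not rise steadily with length. Longer unigenes also held more counts, with a median of 1135.5 counts in the libraries compared at 2000 bases or more and 28 at 500 to 1000 bases. Within a band of 10 to 100 FPKM in the frozen libraries the higher side still made up 57.5% of calls under 500 bases, 63.8% at 500 to 1000, 70.9% at 1000 to 2000 and 76.2% at 2000 or more. Within 1 to 10 FPKM those shares were 50.2%, 44.7%, 48.7% and 55.8%, with no steady order. Depth differs with length inside each band, and its part in these shares was not tested.

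The largest losses were concentrated in fewer unigenes than the largest gains. Summed over all members whose scaled level was lower after acclimation, the loss came to 292608 CPM, and 50% of it lay in 67 unigenes. The gain came to 309983 CPM, and 50% of it was spread over 533 unigenes. Further down the order the difference narrowed, since 90% of the loss took 3329 unigenes and 90% of the gain 4305, and in all 23733 unigenes were lower and 23638 higher in scaled level. The first 10 unigenes made up 20.9% of the loss and 7.58% of the gain. Of the 67, 47 were called lower, the others having ratios that did not clear 2-fold, and their log2 ratios ran from -4.88 to -0.40. Of the 533, 419 were called higher. Over all members 6.55% were called lower and 7.79% higher. Both sets were picked on the libraries that gave the calls, so the direction of their calls is built in.

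The 67 unigenes of the loss held 11.1% of counts after acclimation (exact 95% interval 11.11 to 11.14%), against 25.8% in the control (25.82 to 25.87%). They held 9.47% of counts in leaves frozen after acclimation and 12.9% in leaves frozen without it. The 3 cold-treated libraries thus lay close together for this set, and the control alone stood far above. The set was picked for its high level in the control, so this pattern is partly built in. The 533 unigenes of the gain held 23.5% of counts after acclimation (23.44 to 23.48%), against 8.46% in the control (8.45 to 8.48%). They held 21.3% in leaves frozen after acclimation and 11.1% in leaves frozen without it, so the acclimated libraries stood together here. This set was picked for its gain from control to acclimated leaves, so this pattern is partly built in too.

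**Figure D3:**
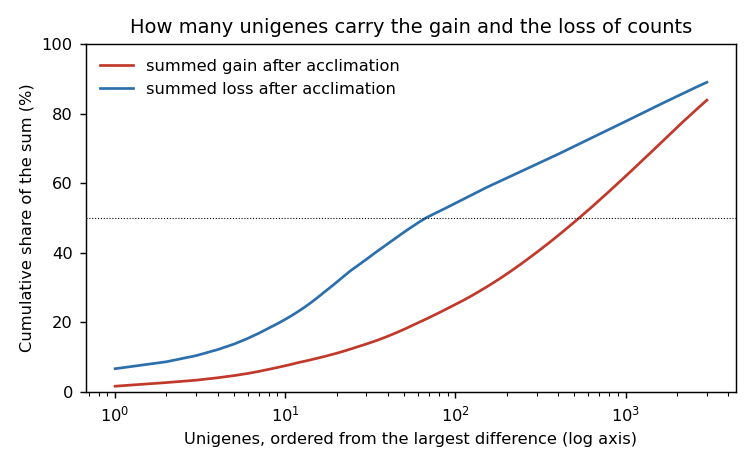
Cumulative share of the summed gain (red) and summed loss (blue) in scaled CPM, in percent (vertical axis), over unigenes ordered from the largest difference (horizontal axis, log scale). The dotted line marks 50%, which the loss crosses at 67 unigenes and the gain at 533.

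The ranking of the most abundant transcripts shifted accordingly. By FPKM, 71 of the 100 highest unigenes of the acclimated library were also among the 100 highest of the control. Of the 29 that were not, 18 were called higher, and their median rank in the control was 257. Among the 100 highest of the acclimated library 20 were called higher and 25 lower. Among the 100 highest of the control 2 were called higher and 45 lower. Each list was chosen on a library of the comparison, which tilts its calls towards that library. The 100 highest made up 22.4% of summed FPKM after acclimation and 34.5% in the control.

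The highest unigene by FPKM in the acclimated library, second in the control, had 19482 FPKM after acclimation and 26170 FPKM in the control. It had 18421 FPKM in leaves frozen after acclimation and 14932 FPKM in leaves frozen without it. It stayed at or next to the top everywhere, with a log2 ratio of -0.40 (95% interval -0.41 to -0.39) that did not clear 2-fold. The third unigene by FPKM after acclimation differed little between the libraries compared, with 5374 FPKM after acclimation and 5818 FPKM in the control. It had 2283 FPKM in leaves frozen after acclimation and 8536 FPKM in leaves frozen without it, so the frozen libraries differed from each other far more than the unfrozen ones. It also led the near-equal unigenes by FPKM.

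The largest difference of any unigene was a loss, in c106657.graph_c1, the highest unigene of the control. It had 260406 counts (16481 FPKM) after acclimation, against 583366 counts (35513 FPKM) in the control, or 1.72% and 3.70% of these libraries. The log2 ratio was -1.08 (-1.09 to -1.08), and the difference alone made up 6.72% of the summed loss. It had 13403 FPKM in leaves frozen after acclimation and 8731 FPKM in leaves frozen without it. The control thus stood highest, and of the cold-treated leaves those frozen without acclimation stood lowest.

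The second largest loss was that of c92600.graph_c1. It had 7273 counts (229 FPKM) after acclimation, against 99238 counts (3007 FPKM) in the control, a log2 ratio of -3.69 (-3.72 to -3.66). It had 155 FPKM in leaves frozen after acclimation and 509 FPKM in leaves frozen without it. All cold-treated libraries were far below the control, the acclimated pair furthest.

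The largest gain in counts was that of c81421.graph_c0, a long unigene with an implied length of 8134 bases. It had 140852 counts (1141 FPKM) after acclimation, against 66671 counts (519 FPKM) in the control, a log2 ratio of 1.16 (1.15 to 1.17). It had 323 FPKM in leaves frozen after acclimation and 167 FPKM in leaves frozen without it. Both frozen libraries stood below both unfrozen ones, and within each pair the acclimated library was higher.

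The second largest gain was that of c99584.graph_c0. It had 51901 counts (1796 FPKM) after acclimation, against 4073 counts (136 FPKM) in the control, a log2 ratio of 3.75 (3.71 to 3.80). It had 1207 FPKM in leaves frozen after acclimation and 182 FPKM in leaves frozen without it. Here both acclimated libraries stood above both others. All these libraries had different treatments, so none is a replicate of another. The unigene was picked for its gain from control to acclimated leaves, so this order is partly built in. How many of all unigenes share the order is not given here. By FPKM c99584.graph_c0 ranked 19 after acclimation and 581 in the control.

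The 10 unigenes with the largest gains had a median of 1349 FPKM after acclimation (545 to 4332) and 136 FPKM in the control (2.25 to 1104). Their medians were 978 FPKM in leaves frozen after acclimation and 306 FPKM in leaves frozen without it. In the frozen pair, all 10 were higher in the leaves acclimated before, each with its whole interval above equal levels under TMM. By point value, 45.6% of all members were higher and 53.9% lower in that pair. The share of all members with a whole interval beyond equal levels there is not given here. At the depth of these 10, a small difference clears counting error. The fifth of them was nearly level there, with 819 FPKM in leaves frozen after acclimation and 859 FPKM in leaves frozen without it, a log2 ratio of 0.19 under TMM that turned to -0.069 with total counts.

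The 10 largest losses had a median of 1160 FPKM after acclimation (152 to 16481) and 4123 FPKM in the control (3007 to 35513). Their medians in the frozen libraries were 860 FPKM after acclimation and 702 FPKM without it. Taken unigene by unigene, the median log2 ratio in the frozen pair was -0.43 under TMM. Single values ran from -2.23 in the seventh loss to 2.07 in the fifth. In the frozen pair 6 were lower in the leaves acclimated before and 4 higher under TMM, of which 2 turned to lower with total counts. Of all members, 53.9% were lower and 45.6% higher there by point value. With median-of-ratios factors the ninth loss took in equal levels, at -0.033, which left 5 lower. The largest of these 4 differences was in the fifth loss, which had 1434 FPKM after acclimation and 7261 FPKM in the control. It had 987 FPKM in leaves frozen after acclimation and 281 FPKM in leaves frozen without it.

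**Figure D4:**
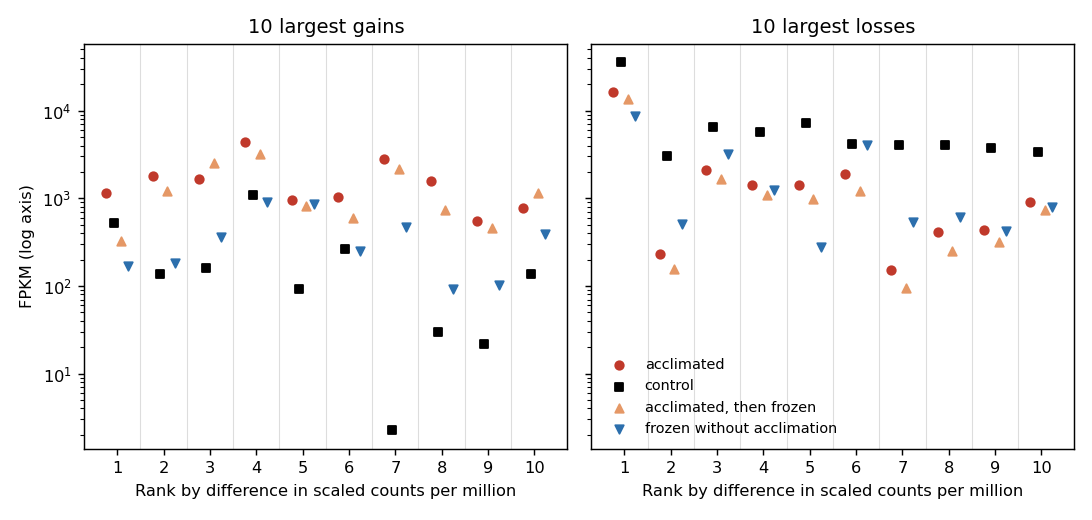
FPKM (vertical axis, log scale) of the 10 unigenes with the largest gain (left) and the largest loss (right) in scaled CPM, by rank (horizontal axis); each point is 1 library. Among the gains the frozen library without acclimation (blue triangles) lies near 859 FPKM at rank 5, level with the acclimated and frozen one, and among the losses it lies lowest at ranks 1 and 5.

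Ranked by ratio in place of counts, most of the extreme unigenes were scarce in the library where they were lower. The 10 most extreme on the higher side, ordered by the interval bound nearest to equal levels, had a median of 103 FPKM after acclimation (26.0 to 2798) and 0.267 FPKM in the control (0 to 4.63). Their medians were 200 FPKM in leaves frozen after acclimation and 5.79 FPKM in leaves frozen without it. Under TMM the whole interval in the frozen pair lay on the same side for 8 of them, on the other side for 1, and took in equal levels for 1, which moved to the other side with total counts (log2 ratio -0.53). By point value, 45.6% of all members were higher in that pair and 53.9% lower. The third of them had 4428 counts after acclimation and 5 in the control, and had 2336 counts in leaves frozen after acclimation and 38 in leaves frozen without it. The ninth had 1601 counts after acclimation and 7 in the control, with 2720 counts in leaves frozen after acclimation and 6 in leaves frozen without it. Both were thus plentiful in both acclimated libraries and nearly missing from the control. In leaves frozen without acclimation the ninth was nearly missing too. The third had 2.97 FPKM there, where the median over all members was 2.67 FPKM.

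On the lower side, the 10 most extreme unigenes had a median of 0.0793 FPKM after acclimation and 34.5 FPKM in the control. Their medians were 6.29 FPKM in leaves frozen after acclimation and 28.9 FPKM in leaves frozen without it. In the frozen pair the whole interval lay on the lower side for all 10 under TMM and total counts. By point value under TMM, 53.9% of all members were lower there. With median-of-ratios factors the eighth, at a log2 ratio of -0.054, took in equal levels. The third of them had 1 count after acclimation and 302 in the control, but 168 counts in leaves frozen after acclimation and 376 in leaves frozen without it. The fifth had 24 counts after acclimation and 1388 in the control, with 268 counts in leaves frozen after acclimation and 730 in leaves frozen without it. In both the unfrozen acclimated library was the lowest, and leaves frozen after acclimation had a higher level. These unigenes were picked for a low ratio of acclimated to control leaves, so this order is partly built in. The eighth differed from these, with 1327 counts after acclimation and 41291 in the control, with 737 counts in leaves frozen after acclimation and 1008 in leaves frozen without it. There the control stood apart from all 3 other libraries.

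Some unigenes were seen in 1 of the libraries compared and not in the other. With 0 counts in the control and at least 20 scaled counts after acclimation there were 78 unigenes, with a median of 28 counts and a highest value of 886. Taking 3 counts as the limit in the control library, they were at least 7.05-fold higher, with a median bound of 9.87-fold and a highest bound of 312-fold. They had a median of 21.5 counts in leaves frozen after acclimation and 6.5 in leaves frozen without it, and 62 of them reached 10 counts in the acclimated frozen library against 32 in the other. Over all members, 29020 reached 10 counts in the acclimated frozen library and 31827 in the other.

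With 0 counts after acclimation and at least 20 scaled counts in the control there were 105 unigenes, with a median of 30 counts and a highest value of 514. They were at least 6.62-fold lower after acclimation, with a highest bound of 162-fold. They had a median of 1 count in leaves frozen after acclimation and 10 in leaves frozen without it, and 37 were at 0 in the acclimated frozen library against 12 in the other. Over all members the lean was the same way, with 2745 at 0 in the acclimated frozen library and 1244 in the other. By these medians, the unigenes seen only after acclimation were higher, and those seen only in the control lower, in the frozen library that had been acclimated.

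At the other extreme, the 1392 near-equal unigenes held 14.2% of acclimated and 14.6% of control counts. They were abundant and long, with medians of 28.5 FPKM after acclimation and 28.8 FPKM in the control and an implied length of 1599 bases, against 734 over all members. A narrow interval needs many counts, so this class can hold abundant unigenes only. In the frozen pair their median log2 ratio was 0.013 under TMM. The fourth of them by FPKM had 2824 FPKM after acclimation, 2544 FPKM in the control, 2980 FPKM in leaves frozen after acclimation and 2734 FPKM in leaves frozen without it.

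The frozen libraries form a pair that also differs in acclimation and shares no library with the comparison. Any difference in the response to freezing enters that pair as well, and cannot be told apart from the acclimation itself. Over all members, leaves frozen after acclimation against leaves frozen without it had a median log2 ratio of -0.11 under TMM, -0.36 with total counts and -0.016 with median-of-ratios factors. In that pair 5.73% of members were called higher and 4.84% lower by the same rule. The larger the difference between acclimated and control leaves on the higher side, the larger was the median in the frozen pair. It was 1.11 for the 2677 unigenes beyond 2-fold but not 4-fold and 1.72 for the 738 beyond 4-fold but not 8-fold. It was 2.26 for the 209 beyond 8-fold but not 16-fold and 2.61 for the 117 beyond 16-fold. With counts under 3 set to 3 these medians were 1.07, 1.71, 2.25 and 2.51. The share called higher in the frozen pair was 32.7%, 57.5%, 69.9% and 76.9% in the same order of classes. The median level in leaves frozen after acclimation rose over these classes too, at 11.5, 14.7, 21.2 and 65.3 FPKM. The part of depth in the shares called was not tested.

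On the lower side the medians in the frozen pair were -1.23 for the 2501 unigenes beyond 2-fold but not 4-fold, -1.64 for the 479 beyond 4-fold but not 8-fold, -2.07 for the 129 beyond 8-fold but not 16-fold, and -2.04 for the 37 beyond 16-fold. With counts under 3 set to 3 they were -1.05, -1.47, -1.85 and -2.05. The share called lower was 24.8%, 40.5%, 58.1% and 54.1%, and the part of depth was not tested here either. In each class, on either side, the median in the frozen pair was nearer to 0 than that of the same unigenes between acclimated and control leaves, which was 1.90, 2.97, 4.00 and 5.73 on the higher side and -2.13, -3.28, -4.10 and -5.75 on the lower. The classes were chosen on the unfrozen pair, so a smaller value in another pair is partly built in.

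Levels in all 4 libraries can be set side by side for the most extreme classes. The 117 unigenes higher beyond 16-fold had medians of 64.0 FPKM after acclimation, 1.13 FPKM in the control, 65.3 FPKM in leaves frozen after acclimation and 10.2 FPKM in leaves frozen without it. By these medians the acclimated libraries lay close together, and the library frozen without acclimation stood above the control. Single unigenes of the class could differ widely between the acclimated libraries: the fourth by ratio had 886 counts after acclimation and 187 in leaves frozen after acclimation. The 37 unigenes lower beyond 16-fold had medians of 0.149 FPKM after acclimation, 16.2 FPKM in the control, 2.18 FPKM in leaves frozen after acclimation and 9.02 FPKM in leaves frozen without it. For these the frozen acclimated library stood above the unfrozen acclimated one, and the frozen library without acclimation below the control. Both classes were picked for an extreme ratio of acclimated to control leaves, so these orders are partly built in. Over all members the medians were 1.95 FPKM after acclimation and 2.21 FPKM in the control. They were 1.93 FPKM in leaves frozen after acclimation and 2.67 FPKM in leaves frozen without it.

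**Figure D5:**
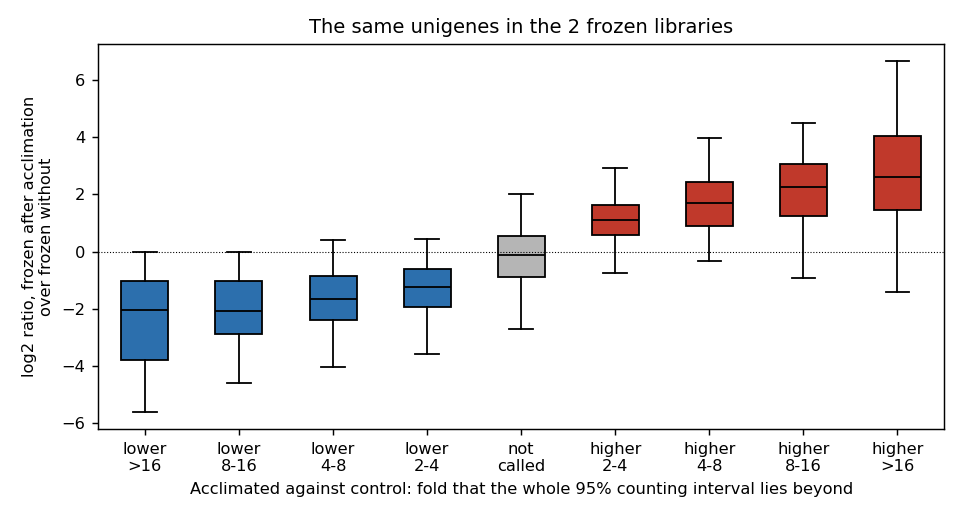
Log2 ratio of leaves frozen after acclimation over leaves frozen without it (vertical axis) for unigenes grouped by the fold that the whole 95% counting interval of acclimated against control lay beyond (horizontal axis). Boxes show the quartiles and median over unigenes and whiskers the central 90%; the medians run from -2.04 in the class lower beyond 16-fold to 2.61 in the class higher beyond 16-fold.

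Opposite calls in the unfrozen and the frozen pair were few. Called higher after acclimation and lower in the frozen pair were 55 unigenes, 1.47% of those called higher, where 4.84% of all members were called lower in that pair. Called lower after acclimation and higher in the frozen pair were 17, 0.540% of those called lower, where 5.73% of all members were called higher. The share of opposite calls was largest in the most extreme class on the higher side, at 7 of 117 unigenes (5.98%). It was 33 of 2677 (1.23%) in the class beyond 2-fold but not 4-fold. The larger share rests on 7 unigenes and lies near the 4.84% of all members. The extreme class also had a higher median level after acclimation, 64.0 FPKM against 13.4 FPKM. The part of depth in these shares was not tested.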

How the data were processed

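RNA was measured in 4 libraries, 1 per treatment, grouped by the treatment label. Columns were tied to samples by the title in the column name. The authors deposited raw, whole-number counts per unigene. The FPKM values that the authors deposited came out as counts over library total and over a length common to all libraries (largest relative difference 2.04e-08), which gave the implied lengths. Bowtie 0.12.2, Cufflinks and the mouse build mm8 are named per the submitters' processing notes. The assembler, counting rule and use of strand are not given in the sources used here, and near-identical copies may share reads.

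TMM scaling used edgeR 4.0.16 (R 4.3.3), with factors of 0.976 for acclimated, 0.993 for control, 0.928 for acclimated and frozen, and 1.11 for frozen leaves. Ratios were given exact (Clopper-Pearson) 95% intervals from the binomial share of both counts (scipy 1.17.1), and log2 ratios used a prior count of 0.5. With 1 library a side no model was fitted. The interval rule was tested on simulated data. Alternatives were other scalings (with DESeq2 1.42.0 for median-of-ratios factors), filters and call rules.

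Unigenes were described by rank of gain or loss in scaled CPM, of ratio and of FPKM. Identifiers are printed for the first 2 gains and the first 2 losses. The members, ranks and rules were chosen with earlier results of these data known. Gene lists could not be applied, as no unigene has a name. Molecular identifiers are named in no source used here, so intervals and limits cover counting error only.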

Additional observations from a re-analysis of the deposited data

Results flagged for a closer look

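A few of the ranked unigenes moved one way between acclimated and control leaves and the other way between leaves frozen after acclimation and leaves frozen without it, with both whole counting intervals on opposite sides of equal levels. With 1 library each, the difference between these effects was not tested. The largest loss, c106657.graph_c1, was lower after acclimation (log2 ratio -1.08) but higher in the frozen pair, at 0.88 (95% interval 0.87 to 0.89). The fifth loss was lower after acclimation (-2.32) and higher in the frozen pair, at 2.07 (2.02 to 2.13). The fourth loss (-2.00 after acclimation) had 0.038 in the frozen pair and the tenth (-1.85) had 0.14, and both turned with total counts, to -0.22 and -0.12. The eighth most extreme riser by ratio had 916 counts after acclimation and 2 in the control, a log2 ratio of 8.59. In the frozen pair it stood at -1.40 (-1.51 to -1.29), with 876 counts in leaves frozen after acclimation and 2838 in leaves frozen without it.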

How the results depend on the processing

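The scaling hardly touched the comparison: total counts moved its log2 ratios by -0.024 and median-of-ratios factors by 0.0042, and none of the 39 ranked unigenes checked changed its call or sign under either. The share of calls that were higher was 54.3%, or 53.0% with total counts. The call rule and the filter mattered more. Beyond 4-fold there were 1064 higher and 645 lower (3.56% of members, 62.3% of calls higher), and beyond equal levels 11701 and 12236 (49.9%, 48.9% higher). A log2(FPKM + 1) difference of at least 1 gave 4919 higher and 5256 lower (21.2%, 48.3% higher), and a 99% interval 10.7% called, 57.8% of them higher. So the balance of higher and lower calls turned with the call rule. A minimum of 100 counts left 1981 lower calls, 20.4% of unigenes called and 59.1% of calls higher. A minimum of 10 counts in the libraries compared gave 18.1% called, and no filter 8.81%. The median log2 ratio of all members was 0 (-0.00053 with total counts, 0.026 at 100 counts), and the interquartile range 1.75 (1.53 with a prior count of 2, 1.38 at 100 counts). With 1.5-fold as the bound of near-equal levels there were 4804 such unigenes. At 50 scaled counts, 17 unigenes were on only after acclimation and 16 only in the control. In the frozen pair, total counts moved log2 ratios by -0.26 and median-of-ratios factors by 0.10. The unigenes called higher had a median of 1.24 there, 0.99 with total counts and 1.34 with median-of-ratios factors, and those called lower -1.32, -1.56 and -1.23. No paired analysis was possible because each treatment has 1 library. For the same reason no replicate could be left out.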

Other observations

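Some unigenes carry the number of the same assembly component. No source used here says how reads were divided between them. Of the 4164 members in the 2082 components with exactly 2 members, 418 were called higher and 297 lower. Among all 48004 members, 3741 (7.79%) were called higher and 3146 (6.55%) lower. Both members of a component were called higher in 85, both lower in 37, and 1 higher with 1 lower in 12. Whether calls within a component go together more than these shares imply was not tested. In 236 components 1 was called higher and the other not called, and in 211 1 was called lower and the other not called. In 1501 neither was called. The sixth and the eighth largest gain belonged to 1 component. The sixth had 37010 counts after acclimation and 9796 in the control, and the eighth 27486 counts after acclimation and 541 in the control, so the first was 3.99-fold and the second 53.7-fold higher, further apart than counting error allows.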
